A study of Mus musculus with 4 samples.

Results

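The 9 genes described here encode stored proteins of neutrophils: Camp (the cathelicidin antimicrobial peptide), Ngp (neutrophilic granule protein), Ltf (lactotransferrin, which binds iron), Lcn2 (lipocalin 2, which binds bacterial siderophores), S100a8 and S100a9 (the calprotectin subunits), Retnlg (resistin-like gamma), and the matrix metalloproteinases Mmp8 (neutrophil collagenase) and Mmp9 (gelatinase B). They were chosen by name, with no measured value in the rule but with earlier results of these data known. They are 9 of the 32287 features counted. All 9 were detected in each of the 4 capture areas, with 9348 UMIs in all. A UMI is a unique molecular identifier, counted once for each captured RNA molecule, so no scaling by gene length was applied.

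Neutrophils build their granules in sequence while they mature in the bone marrow. Azurophil granule proteins such as Mpo come first, specific granule proteins such as Ltf, Camp, Ngp and Lcn2 follow, and the gelatinase Mmp9 is made late. Transcripts of the specific granule genes are most abundant in maturing cells and decline as the cell leaves the marrow, whereas S100a8 and S100a9 stay high in circulating neutrophils and are also made by monocytes. In lymph nodes, neutrophils are known to arrive by blood or lymph and to gather in the sinuses and beneath the capsule.

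Popliteal lymph nodes (PLNs), which drain the hind paw and its joints, came from male C57BL/6 mice, and Evan's blue dye had been injected into the hind paw of the animals to find the nodes. The WT group held 10 PLNs of 5 wild-type mice aged 5.5 months, and the Early group 6 PLNs of 3 TNF-Tg mice of the same age with early arthritis. Advanced 1 and Advanced 2 each held 6 PLNs of 3 TNF-Tg mice aged 8.5 to 9 months with advanced arthritis. TNF-Tg mice carry a human TNF transgene and develop arthritis with age, so age and stage cannot be told apart in this series. The nodes of an area were frozen and cut together and lay on 1 Visium capture area as 1 section, so the spread between mice was not measured, and the Advanced group is the only one with 2 areas. The total was between 1808678 and 5180493 UMIs per area, on 833 to 2015 spots under tissue. A rim spot had at least 1 of its 6 array neighbours off the tissue, and an interior spot had none. Rim spots were far deeper, with medians of 2113 to 5594 UMIs against 140.5 to 250.5 in the interior, and levels are therefore given as UMIs per 10000 UMIs of the area or region. The neutrophil marker Ly6g had 14 UMIs in all 4 areas together, so the cell type behind the 9 genes was not established from that marker. A lower level may mean fewer cells of a type or less RNA per cell, and these cannot be told apart in spots that each cover several cells.

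On GRCm38, Camp (ENSMUSG00000038357, 109847379 to 109849617), Ngp (ENSMUSG00000032484, 110419747 to 110423012) and Ltf (ENSMUSG00000032496, 111019271 to 111042767) lie on chromosome 9 within a span of 1195.4 kb. S100a8 (ENSMUSG00000056054, 90668978 to 90670035) and S100a9 (ENSMUSG00000056071, 90692632 to 90695721) are neighbours on chromosome 3, 22.6 kb apart and on opposite strands. Lcn2 (ENSMUSG00000026822, 32384633 to 32388252) and Mmp9 (ENSMUSG00000017737, 164940780 to 164955850) lie on chromosome 2, Mmp8 (ENSMUSG00000005800, 7558456 to 7568485) on chromosome 9 and Retnlg (ENSMUSG00000022651, 48872621 to 48874496) on chromosome 16. All 9 are protein-coding, and none overlaps another gene of the GENCODE M21 annotation.

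The promoters of the granule genes Camp, Ngp and Ltf and of the calprotectin genes S100a8 and S100a9 are shown because these 5 genes were the members higher in Advanced than in Early, as described below. They were taken from RefSeq on GRCm38.p6, which held 8 of the 9 members, and are printed 5′ to 3′ on the gene's strand up to the earliest start annotated by RefSeq or GENCODE. Capitals mark TTNNGNAA, the letters bound by C/EBP factors of granulocytes, and GAGGAA, the core bound by PU.1, each searched on both strands; no match of one overlapped a match of the other in the 8 windows. The windows are chr9:109849618-109849706 (Camp, minus strand), chr9:110419558-110419746 (Ngp, plus), chr9:111019042-111019270 (Ltf, plus), chr3:90668821-90668977 (S100a8, plus) and chr3:90695722-90695971 (S100a9, minus).
Camp: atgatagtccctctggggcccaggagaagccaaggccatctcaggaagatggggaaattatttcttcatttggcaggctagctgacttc
Ngp: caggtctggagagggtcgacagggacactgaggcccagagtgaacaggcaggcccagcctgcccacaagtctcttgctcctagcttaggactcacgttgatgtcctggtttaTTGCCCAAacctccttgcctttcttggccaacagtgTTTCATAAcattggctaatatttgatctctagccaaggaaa
Ltf: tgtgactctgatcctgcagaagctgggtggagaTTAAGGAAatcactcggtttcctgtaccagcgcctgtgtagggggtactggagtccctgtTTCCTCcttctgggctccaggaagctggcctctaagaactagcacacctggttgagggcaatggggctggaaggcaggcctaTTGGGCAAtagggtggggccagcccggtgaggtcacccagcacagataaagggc
S100a8: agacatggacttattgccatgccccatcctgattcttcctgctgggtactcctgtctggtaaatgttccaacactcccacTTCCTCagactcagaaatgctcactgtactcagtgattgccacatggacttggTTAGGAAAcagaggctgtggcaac
S100a9: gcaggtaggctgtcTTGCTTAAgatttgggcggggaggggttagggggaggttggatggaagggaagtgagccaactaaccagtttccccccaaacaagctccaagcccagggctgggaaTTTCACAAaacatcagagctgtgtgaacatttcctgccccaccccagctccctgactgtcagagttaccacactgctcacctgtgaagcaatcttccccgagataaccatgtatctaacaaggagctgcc

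Over the 250 bases ahead of the RefSeq start, TTNNGNAA was present in 7 of the 8 members and in 36.8% of all 32851 promoters of the same length. The core GAGGAA was present in 4 of the 8 members and in 23.3% of all promoters. Ngp held 3 matches to TTNNGNAA, 2 of them in the printed stretch, and Ltf and S100a9 held 2 each. The Camp window held neither motif. These matches describe the letters only.

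The comparison of areas asked how the 9 genes differed between WT and the arthritis stages. Camp, Ngp and Ltf were highest in Advanced 1, next in Advanced 2, then in WT, and lowest in Early. S100a8 and S100a9 were also highest in Advanced 1 and lowest in Early, with Advanced 2 slightly below WT. Mmp9 had its own order, with Early highest and WT lowest.

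**Figure D1:**
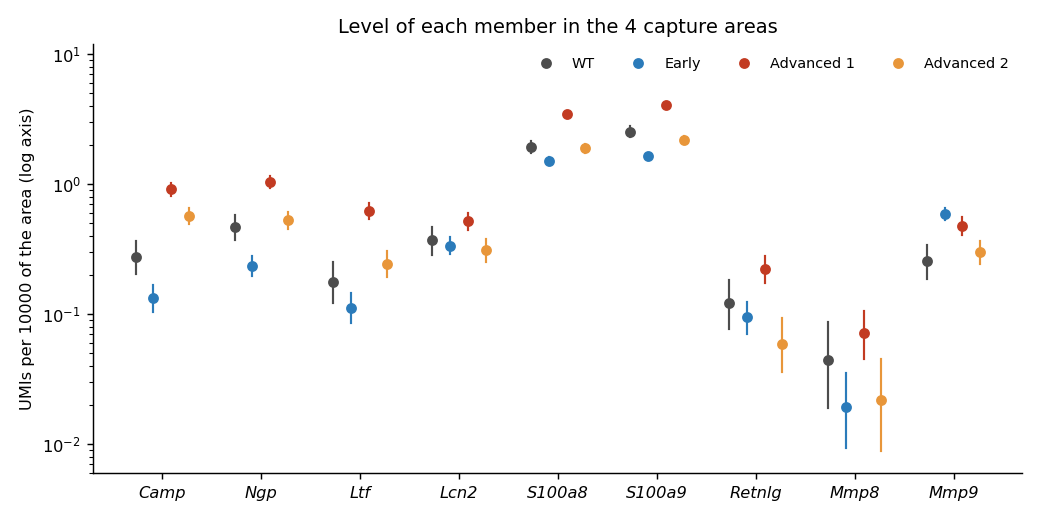
Level of each of the 9 genes in the 4 capture areas, as UMIs per 10000 UMIs of the area on a log axis, with exact Poisson 95% intervals that cover counting error only. Camp, Ngp and Ltf ran from a low in Early to a high in Advanced 1, whereas Mmp9 was highest in Early at 0.591.

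Camp was at 0.276 UMIs per 10000 in WT, 0.133 in Early, 0.915 in Advanced 1 and 0.572 in Advanced 2. The exact 95% intervals of the 4 areas did not overlap. Ngp was at 0.464, 0.235, 1.05 and 0.528 in the same order of areas, and Ltf at 0.177, 0.112, 0.622 and 0.244. For both genes the Advanced 2 interval overlapped that of WT but not that of Early. Early had 0.482 times the Camp level of WT (exact 95% interval 0.330 to 0.708) and 0.507 times its Ngp level (0.381 to 0.678), while for Ltf the ratio of 0.633 had an interval that reached 1.01. These Early to WT ratios compare 1 area with 1 area and were not tested.

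In edgeR's quasi-likelihood test on UMIs summed per area, with Benjamini-Hochberg adjustment, 5 of the 9 genes were higher in Advanced than in Early and none was lower. Over all 13102 genes tested, 0.496% were higher and 0.664% lower (1.16% in all). The log2 fold change was 2.40 for Camp (standard error 0.27, adjusted p = 3.13e-16), 1.66 for Ngp (0.24, adjusted p = 5.41e-09) and 1.87 for Ltf (0.30, adjusted p = 3.53e-07). S100a8 rose by 0.75 (0.19, adjusted p = 0.00925) and S100a9 by 0.86 (0.18, adjusted p = 0.000751). The median over the 9 genes was 0.86, against 0.01 over all genes tested. Among marker lists of other cells, 5 of 7 adipocyte genes were also higher than in Early and none of the 3 marrow progenitor genes tested passed; their part in the result was not tested. The fit had 1 residual degree of freedom, from the 2 Advanced areas, and assumes that WT and Early vary like them. DESeq2 called 1 of these 5 genes, Camp (adjusted p = 0.00204), with adjusted p = 1 for the other 4, and in rim spots alone edgeR called only Camp as well.

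Advanced 1 and Advanced 2 differed between themselves by 1.60-fold for Camp, 1.98-fold for Ngp and 2.55-fold for Ltf, and by 1.82-fold and 1.88-fold for S100a8 and S100a9. With Advanced 2 alone against Early, the log2 difference, with no test, was 2.04 for Camp, 1.1 for Ngp and 1.06 for Ltf, but only 0.27 for S100a8 and 0.35 for S100a9. With Advanced 1 alone it was 2.69, 2.06, 2.38, 1.105 and 1.23 for the same genes. The difference from Early thus had the same sign in both Advanced areas for all 5 genes, and its size depended on the area.

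Against WT, edgeR gave Camp a log2 fold change of 1.31 in Advanced (SE 0.28, adjusted p = 0.000287) and Ltf one of 1.18 (SE 0.33, adjusted p = 0.0239), both higher. These were 2 of the 9 members, where 0.733% of all 13102 genes were higher and 1.34% lower (2.08% in all), and the members' median was 0.35 against 0.01 over all genes. Ngp had a log2 fold change of 0.65 (0.25) with an adjusted p of 0.204, and S100a8 and S100a9 had 0.35 and 0.19 with adjusted p = 0.52 and 0.804. DESeq2 called none of the 9 against WT and passed 1, Camp, at an unadjusted p under 0.05 (adjusted p = 0.755), while edgeR passed Camp, Ltf and Ngp at an unadjusted p under 0.05. In rim spots alone edgeR called none of the members, in interior spots alone only Ltf, and without the 10 spots richest in the 9 genes only Camp. Red cell markers were higher in Advanced than in WT for all 5 genes tested, and 5 of 7 sinus macrophage markers were lower; their part in the result was not tested. In Advanced 2 alone, with no test, the log2 difference from WT was 0.95 for Camp, 0.36 for Ltf, 0.14 for Mmp9 and 0.09 for Ngp, but -0.13 for S100a8, -0.32 for S100a9, -0.36 for Lcn2, -1.13 for Retnlg and -1.11 for Mmp8.

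S100a8 was at 1.94 UMIs per 10000 in WT, 1.51 in Early, 3.45 in Advanced 1 and 1.90 in Advanced 2, and S100a9 at 2.54, 1.64, 4.10 and 2.18. WT and Advanced 2 could not be separated for S100a8, at a ratio of 0.976 with an exact interval of 0.855 to 1.12, whereas S100a9 was lower in Advanced 2, at 0.86 times WT (0.763 to 0.970). Early was below WT for both subunits, at 0.776 times (0.683 to 0.883) for S100a8 and 0.645 times (0.575 to 0.724) for S100a9. Monocyte markers, which share the expression of calprotectin, took between 8.75 and 10.1 UMIs per 10000 in the 4 areas for the 7 genes together, all 7 of them detected in every area. Against Early, Ly6c2 of this list rose by 0.76 on the log2 scale (adjusted p = 0.0185 in edgeR), at 1.58, 0.776, 1.57 and 1.201 UMIs per 10000 in the 4 areas, and Fn1 fell by 1.21 (adjusted p = 2.97e-07); against WT, Ccr2 and Fn1 fell (adjusted p = 0.00165 and 0.00696). Their part in the calprotectin level was not tested.

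Lcn2 was at 0.370, 0.336, 0.521 and 0.310 UMIs per 10000 in WT, Early, Advanced 1 and Advanced 2, and passed no test (adjusted p = 0.958 against Early and 0.974 against WT). Retnlg was at 0.122, 0.0946, 0.222 and 0.0594, and Mmp8, with 49 UMIs in all, at 0.0442, 0.0193, 0.0710 and 0.0219. For all 3 genes Advanced 1 was the highest area, and the other 3 areas had intervals that overlapped. For Retnlg the ratio of Advanced 2 to WT was still 0.488, with an exact interval of 0.25 to 0.946 that left out 1. Retnlg and Mmp8 passed no test between groups either, and the 2 Advanced areas differed by 3.74-fold for Retnlg and 3.25-fold for Mmp8.

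Mmp9 was at 0.254 UMIs per 10000 in WT, 0.591 in Early, 0.477 in Advanced 1 and 0.3002 in Advanced 2. Early had 2.32 times the WT level (exact 95% interval 1.70 to 3.24), not tested, in the direction opposite to Camp, Ngp, S100a8 and S100a9. Advanced against Early gave a log2 fold change of -0.68 (0.23) that did not pass after adjustment over all genes (adjusted p = 0.142). Per S100a8 UMI there were 0.131 Mmp9 UMIs in WT, 0.392 in Early, 0.138 in Advanced 1 and 0.158 in Advanced 2, and only the Early interval lay apart from the other 3.

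The granule genes also changed relative to calprotectin. Summed Camp, Ngp and Ltf UMIs per summed S100a8 and S100a9 UMI were 0.205 in WT, 0.153 in Early, 0.343 in Advanced 1 and 0.330 in Advanced 2. The 2 Advanced areas, whose levels differed, had overlapping exact intervals of 0.317 to 0.370 and 0.295 to 0.368, both above those of WT (0.172 to 0.243) and Early (0.133 to 0.175). Without the 10 spots richest in the 9 genes, the values were 0.183, 0.0954, 0.334 and 0.304, in the same order. In rim spots alone, WT at 0.218 and Advanced 1 at 0.2502 had overlapping intervals, and in interior spots Early at 0.252 stood above WT at 0.155, also with overlapping intervals. This ratio was chosen after the levels had been seen and was not tested.

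**Figure D2:**
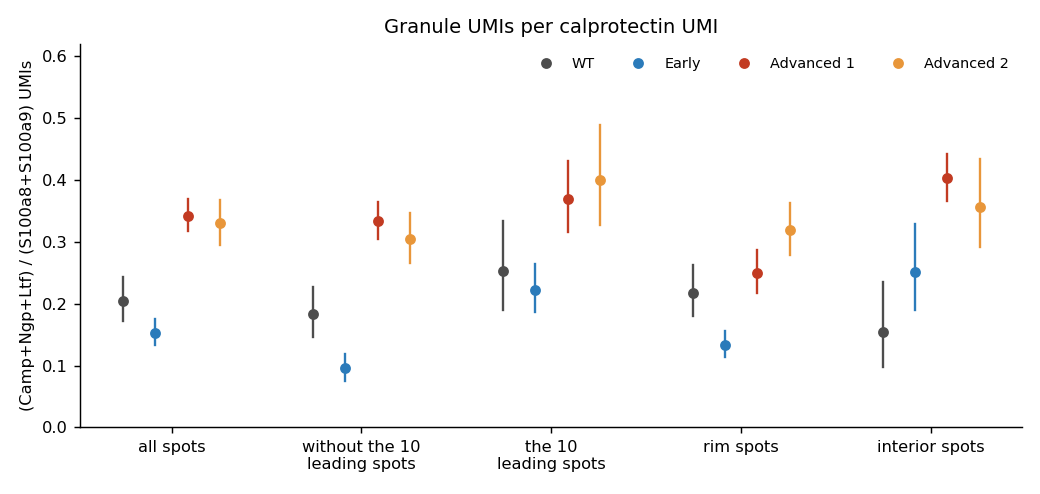
Summed Camp, Ngp and Ltf UMIs per summed S100a8 and S100a9 UMI in the 4 areas, over all spots, without or within the 10 spots with the most UMIs of the 9 genes, and in rim or interior spots; lines are exact 95% intervals for counting error. Over all spots the Advanced areas stood at 0.343 and 0.330, above WT at 0.205 and Early at 0.153.

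The 9 genes were unevenly spread over the sections. In Early, 10 of the 1489 spots held 1013 of the 2416 UMIs of the 9 genes (41.9%), with 2.89% of all UMIs of the area. The 3 richest of them had 314, 212 and 185 UMIs of the 9 genes. All 3 lay in the rim, which held 75.4% of all UMIs of the area. In WT the 10 leading spots held 31.5% of the members' UMIs with 12.6% of all UMIs, in Advanced 1 23.6% with 4.69%, and in Advanced 2 27.1% with 4.43%. Any gene has a larger share in spots picked for its own UMIs. Over all genes with at least 50 UMIs, the median share in a gene's own 10 leading spots was 30% in WT. It was 17.4% in Early, 20.3% in Advanced 1 and 20% in Advanced 2. The WT share of the members was close in value to that median, and the Advanced 1 share was near it. The median is over single genes with as few as 50 UMIs, whereas the members together had 1119 UMIs in WT and 3858 in Advanced 1. A share depends on the number of UMIs, so closeness to the median does not mean an ordinary spread. Early was the area with the lowest granule and calprotectin levels, and with the largest share of the 9 genes together in a few spots.

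**Figure D3:**
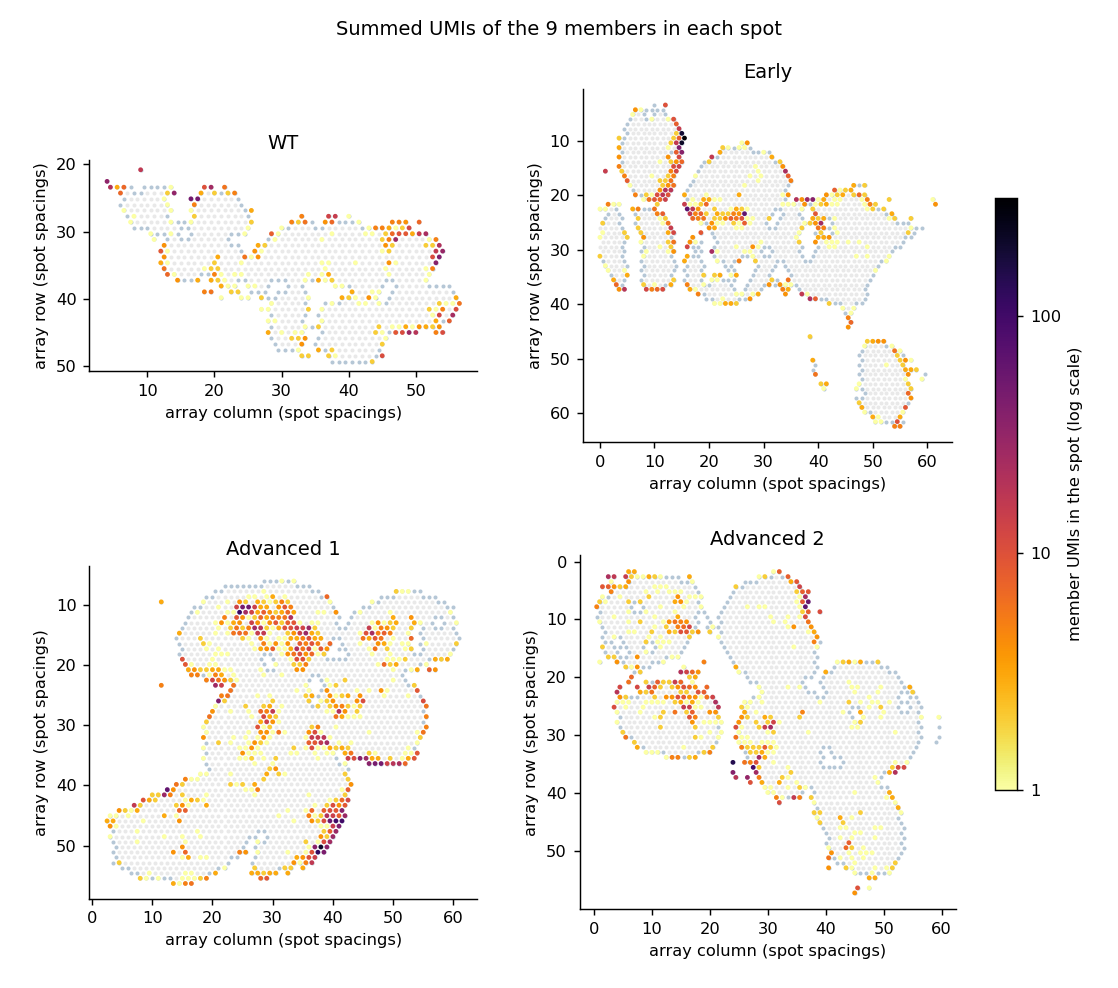
Summed UMIs of the 9 genes in each spot under tissue, placed by array row and column in units of the spot spacing; colour gives the UMIs on a log scale, and pale grey and pale blue mark interior and rim spots with none. In Early the richest spot holds 314 UMIs and 9 of the 10 leading spots lie in the rim, which held 75.4% of all UMIs of that area. In Advanced 1, 4 of 10 lie in the rim, which held 47.9% of all UMIs there.

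Outside the 10 leading spots, Early held 0.0537 Camp, 0.0775 Ngp and 0.0378 Ltf UMIs per 10000, against 0.165, 0.316 and 0.165 in WT. In the same comparison Advanced 1 held 0.739, 0.764 and 0.494, and Advanced 2 held 0.396, 0.370 and 0.186. Without those spots the log2 fold change of Advanced against Early was 3.31 for Camp, 2.78 for Ngp and 3.07 for Ltf. The spots were chosen for their UMIs of these genes and held a larger share of them in Early, so these values restate the concentration and are no separate test. Of the connected pieces of tissue in Early, 1 piece of 313 spots with 29.2% of the UMIs held 57.0% of the Camp, Ngp and Ltf UMIs, and another of 158 spots with 13.7% of the UMIs held 1.2% of them. A further piece of 79 spots held none among its 259545 UMIs, with an exact 95% interval that reached 0.142 UMIs per 10000. The granule genes were thus unequal between pieces of tissue that lay on 1 area, and the labels do not say from which mouse each piece came.

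Gene by gene, the share in a gene's own 10 leading spots in Early was 66.7% for Camp, 70.5% for Ngp, 70.7% for Ltf, 45.4% for S100a8 and 46.8% for S100a9. Over the 9916 genes with at least 50 UMIs in Early the median share was 17.4%, and 1 gene in 10 was above 29.1%. Mmp9, at 21.2%, was close to the median of all genes. In Advanced 1 the shares were 29.1% for Camp, 31.1% for Ngp and 30.5% for Ltf, against a median of 20.3% over all genes and a level of 32.1% that 1 gene in 10 exceeded. In WT they were 64%, 52.4% and 56.25%, against a median of 30% and a 1 in 10 level of 40.2%, with only 32 Ltf UMIs. Advanced 2 had 40.4%, 36.1% and 42.3%, against 20% and 31.4%. A high share of the granule genes in few spots was thus not particular to Early. Such shares depend on a gene's number of UMIs, so Mmp8 and Retnlg, with 10 and 49 UMIs in Early, were left out of this description. The medians are not matched for that number, and in Early Ltf had 58 UMIs, Camp 69 and Mmp9 306.

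**Figure D4:**
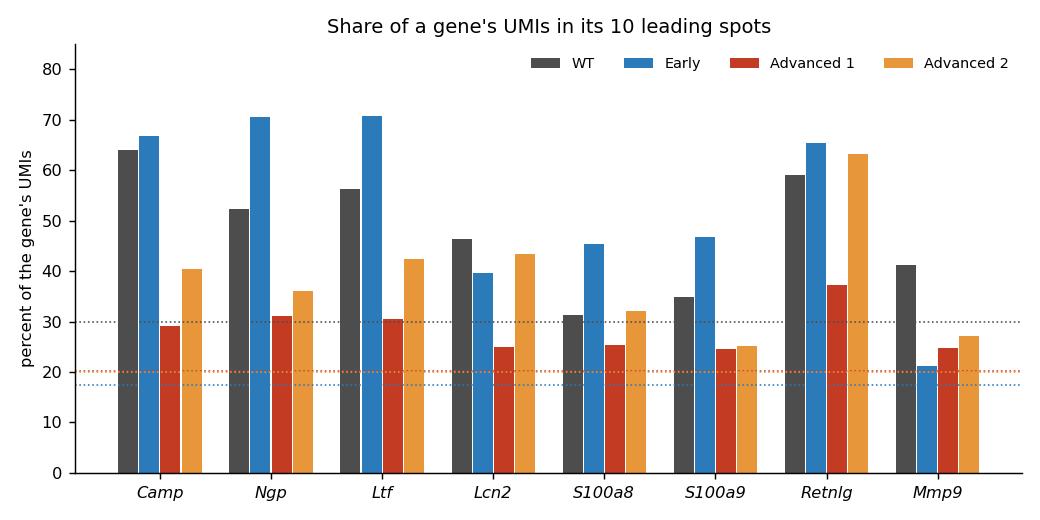
Percent of a gene's UMIs held by its own 10 leading spots in each area; dotted lines give the median over all genes with at least 50 UMIs in that area. In Early Camp, Ngp and Ltf stood at 66.7% to 70.7% and Mmp9 at 21.2%, against a median of 17.4%. In WT Camp and Ngp stood at 64% and 52.4%, against a median of 30%.

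The leading spots also differed in what else they held. B cell markers were lower there in all 4 areas, at 9.568 UMIs per 10000 against 17.77 in the other spots of WT. They were at 14.81 against 31.96 in Early, 16.09 against 27.46 in Advanced 1 and 11.49 against 26.15 in Advanced 2. The other granule and granulocyte differentiation genes were higher in all 4 areas, from 6.979 against 5.75 in WT to 15.68 against 8.649 in Early. The summed azurophil granule genes were higher there except in Advanced 2. Red cell markers took 1.00 UMIs per 10000 in the leading spots of Early against 15.3 in its other spots, and 0.916 against 11.4 in Advanced 2, but 21.6 against 12.7 in Advanced 1 and 7.33 against 3.19 in WT. The summed sinus macrophage markers, most of them UMIs of Marco, were at 48.4 against 26.4 in Early, 67.9 against 36.6 in WT and 34.1 against 26.9 in Advanced 2, but lower in Advanced 1, at 16.9 against 20.9. Siglec1, of the same list, was at 0.400 UMIs per 10000 in the leading spots of Early against 0.610 in the whole area. The authors count Marco, with Lyve1, among markers of lymphatic endothelial cells. Lyve1 was at 6.23 in the leading spots of WT against 3.15 in the whole area. In Early it was at 4.14 against 1.99, in Advanced 1 at 1.70 against 1.15 and in Advanced 2 at 4.79 against 2.05. The summed lymphatic endothelium markers, most of them UMIs of Ccl21a, were at 15.5 against 15.8 in the other spots of WT and 9.07 against 6.72 in Early. They were at 12.1 against 11.2 in Advanced 1 and 12.7 against 12.4 in Advanced 2. Adipocyte markers were at 29.3 against 11.3 in Advanced 1, but lower in the leading spots elsewhere, at 6.32 against 12.96 in WT, 5.07 against 6.99 in Early and 8.39 against 17.0 in Advanced 2. All 7 sinus macrophage genes were detected in every area. The part of these markers in the concentration of the 9 genes was not tested.

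The rim was compared with the interior to ask whether the genes followed the outer edge of the spots under tissue. Mmp9 did so in the TNF-Tg areas, whereas the other members had no common side. In WT a single connected piece held nearly all spots of 10 PLNs, and in Advanced 1 nearly all those of 6 PLNs. The rim is therefore not shown to be the edge of a node. Interior spots had far fewer UMIs than rim spots and were not shown to be node tissue. Mmp9 was at 0.663 UMIs per 10000 in the rim and 0.369 in the interior of Early, at 0.618 and 0.346 in Advanced 1 and at 0.368 and 0.176 in Advanced 2, and thus 1.78 to 2.09 times higher in the rim. In WT it was at 0.251 and 0.268, a ratio of 0.938 with an exact interval of 0.456 to 2.12. In edgeR's quasi-likelihood test over 4 areas with the area as a block, the log2 difference between rim and interior was 0.89 (standard error 0.17, adjusted p = 0.00204).

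Mmp9 was the 1 member called of the 8 that passed the filter on low counts, which left out Mmp8. Of all 11678 genes tested, 7.69% were called in either direction, 4.15% higher and 3.54% lower in the rim. The call was lost without Early, with a rim of 2 spots, and without the area block, where none of the 8 was called. DESeq2 kept it (adjusted p = 0.0332). All 7 adipocyte markers, 4 of the 5 red cell markers and 4 of the 5 B cell markers tested were also higher in the rim. Of the monocyte markers 2 of 7 were higher, and of the T cell markers 3 of 5 were lower. The part of these markers in the result was not tested.

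**Figure D5:**
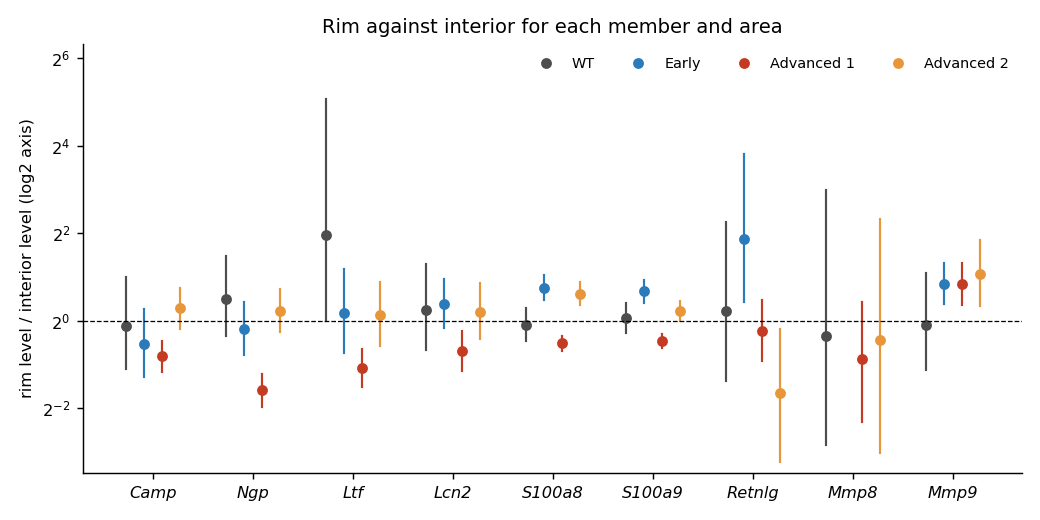
Ratio of the rim level to the interior level for each gene and area on a log2 axis, with exact 95% intervals for counting error; the dashed line marks equal levels, and Mmp8 in Early is left out because its interior held no UMI. Mmp9 lies above the line in the 3 TNF-Tg areas, at 1.78 to 2.09, and Advanced 1 lies below it for Camp, Ngp, Ltf, Lcn2, S100a8 and S100a9.

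In Advanced 1 the interior exceeded the rim for 6 members with intervals that left out 1. Camp was at 0.655 UMIs per 10000 in its rim and 1.15 in its interior, Ngp at 0.513 and 1.54, and Ltf at 0.396 and 0.829. S100a8 was at 2.83 and 4.02, S100a9 at 3.42 and 4.71, and Lcn2 at 0.396 and 0.636. In the interior spots at least 4 steps from the rim, the 3 granule genes together were at 3.67 UMIs per 10000, against 1.56 in the rim.

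The other areas differed from gene to gene. S100a8 was at 1.67 in the rim and 0.989 in the interior of Early and at 2.16 and 1.41 in Advanced 2, and S100a9 was at 1.80 and 1.13 in Early. Camp, Ngp and Ltf had rim to interior ratios between 0.697 and 1.22 in Early and Advanced 2, none with an interval that left out 1. Retnlg was higher in the interior of Advanced 2, at a rim to interior ratio of 0.321 (0.107 to 0.883), and higher in the rim of Early, at 3.67 (1.34 to 14.0). Over the 4 areas the blocked edgeR fit gave log2 differences of -0.27 for Camp, -0.43 for Ngp, 0.26 for S100a8 and 0.18 for S100a9, none of which passed (lowest adjusted p = 0.295). Without Advanced 1, S100a8 was higher in the rim by 0.56 (adjusted p = 0.041), so that area decided its call.

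A test of whether the rim effect differed between Advanced and the other areas, added after the data had been seen, called none of the 8 members and 0 of all 11678 genes in edgeR after adjustment. At an unadjusted p under 0.05 it passed 320 genes, among them Ngp, Ltf, S100a9 and Retnlg, each with a more interior position in Advanced. For Ngp, Ltf and S100a9 the rim to interior ratio was below 1 in Advanced 1 and above 1 in Advanced 2, where its interval included 1.

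In the azurophil granule list, which marks earlier granulocytes, 1 of the 4 genes tested of 5 rose against Early, where 0.496% of all genes did, and none passed against WT. That gene was Mpo (myeloperoxidase), at 0.0442 UMIs per 10000 in WT, 0.0444 in Early, 0.272 in Advanced 1 and 0.0532 in Advanced 2, with a log2 fold change of 1.79 (adjusted p = 0.00928 in edgeR). The rise came from Advanced 1, with 92 of the 140 UMIs, and Advanced 2 did not separate from Early. The 10 leading spots of Advanced 1 held 5 of those 92.

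Among 14 other granule and granulocyte differentiation genes, 13 were tested between groups. None rose, and 1 fell in each comparison, where 0.664% of all genes fell against Early and 1.34% against WT: Hp (haptoglobin) against Early, by 0.95 on the log2 scale (adjusted p = 7.02e-05), and Chil3 (a chitinase-like protein that macrophages also make) against WT, by 1.39 (adjusted p = 0.0242). Cybb (the NADPH oxidase subunit) had the most UMIs of this list and stayed between 1.48 and 2.21 UMIs per 10000. In the rim, where 4.15% of all genes were higher, 1 of 11 genes tested was, Serpinb1a (an inhibitor of neutrophil serine proteases), by 0.52 (adjusted p = 0.00937).

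Of 16 neutrophil surface and identity genes, 14 were tested between groups, with 1 called against Early (1.16% of all genes) and 2 against WT (2.08%). Against Early, Clec4e (the receptor Mincle) fell by 1.40 on the log2 scale (adjusted p = 4.06e-06). Against WT, Clec4e rose by 1.45 (adjusted p = 0.0135) and Il1r2 (the interleukin 1 decoy receptor) fell by 1.49 (adjusted p = 0.00696). Clec4e was at 0.0885 UMIs per 10000 in WT, 0.656 in Early, 0.216 in Advanced 1 and 0.309 in Advanced 2, with Early highest and WT lowest as for Mmp9. In the rim test 2 of 11 genes were higher, against 4.15% of all genes, Clec4e by 1.15 (adjusted p = 0.00048) and Cxcr2 (a chemokine receptor of mature neutrophils) by 0.83 (adjusted p = 0.0165). Itgam, the gene of this list with the most UMIs, was between 0.564 and 0.702 in the 4 areas.

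Among 9 chemoattractant and growth factor genes, 4 were tested, and 2 were lower in each of the 3 comparisons, where 0.664% of all genes were lower against Early, 1.34% against WT and 3.54% in the rim. Csf3, which encodes the granulocyte growth factor G-CSF, had 12 UMIs in WT, 28 in Early, 0 in Advanced 1 and 2 in Advanced 2, and passed in edgeR against Early (adjusted p = 0.00841) and WT (adjusted p = 0.00694). The exact 95% interval of the count of 0 in Advanced 1 reached 0.0109 UMIs per 10000, against levels of 0.0663 in WT and 0.0541 in Early. Of the 12 Csf3 UMIs of WT, 10 lay in the 10 spots richest in the 9 genes, which held 12.6% of all UMIs, and in Early 3 of 28 did. Cxcl1, which attracts neutrophils through Cxcr2, fell by 1.05 against Early (adjusted p = 0.0114), from 0.398 to 0.269 and 0.134 UMIs per 10000, and Il1b fell by 1.02 against WT (adjusted p = 0.00339). The chemokine gene Cxcl5 and Il1b were lower in the rim than in the interior, by 0.85 and 0.58 (adjusted p = 0.0143 and 0.0291), the side opposite to Mmp9.

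Of the 9 receptors and inhibitors of the members, 8 were tested. None passed against Early. Against WT, 2 fell, where 1.34% of all genes did: Timp1, which inhibits Mmp9, fell by 1.39 (adjusted p = 0.0408) and Lrp1, a clearance receptor for proteinases and lactotransferrin, fell by 0.75 (adjusted p = 0.0084). Timp1 was at 0.216 UMIs per 10000 in WT, 0.123 in Early, 0.139 in Advanced 1 and 0.0375 in Advanced 2. In the rim 1 of 8 was higher, against 4.15% of all genes: Cd36, a scavenger receptor, by 0.88 (adjusted p = 0.0016). Timp2 had the most UMIs of the list, at 2.02 to 2.85 UMIs per 10000.

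Across spots, the 36 pairs of members had a median correlation of 0.209, as the mean of Pearson's r over the 4 areas, against 0.049 between the members and all 8865 genes with at least 200 UMIs. The points are spots with at least 500 UMIs, between 356 and 815 in an area, that share a library and differ in depth, so the values describe the sections. S100a8 and S100a9 had the highest mean r (0.419), followed by Camp and Ngp (0.371) and Ngp and Ltf (0.347). The 8 pairs with Mmp9 had mean r between 0.058 and 0.112, the lowest of all members. The 8 other genes most like the members were Jchain (0.243), Il6st, Hspa5, Psap, Lrg1, Ighg2b, Hsp90b1 and Igkc (0.221), a group with the plasma cell genes Jchain, Ighg2b and Igkc. None was of the fixed neutrophil lists, but genes under 200 UMIs could not be ranked. That left out every azurophil granule gene and most surface and identity genes, such as Ly6g with 14 UMIs. Hp, which could be ranked, was at place 41 of 8865 (0.198). The r of these plasma cell genes differed between areas and was highest in WT and lowest in Advanced 2. It was 0.438 and 0.047 there for Igkc, 0.383 and 0.069 for Ighg2b, and 0.399 and 0.149 for Jchain.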

How the data were processed

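Gene expression was measured with 10x Visium on 4 capture areas of mouse PLN sections. The authors deposited UMI counts per gene and spot, made with Space Ranger 1.1.0 on mm10 per the labels, whose processing notes also name Seurat 4.0.3 and R 4.1.1. Spots under tissue were kept and not filtered further, and the counts were not normalized. The members and gene lists were chosen with earlier results of these data known.

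Levels are UMIs per 10000 with exact Poisson 95% intervals, and ratios have exact conditional intervals; both cover counting error only. UMIs were summed per area, or per area and rim or interior, and fitted with edgeR 4.0.16 (TMM, filterByExpr, quasi-likelihood test, Benjamini-Hochberg over all genes, adjusted p under 0.05) in R 4.3.3, with the area as a block for rim against interior. DESeq2 1.42.0, other scalings, filters, spot sets and left-out areas were alternatives. WT and Early are 1 area each and were compared by ratio alone. A gene was named if it was a member, passed a test within a fixed list, or had the most UMIs of its list; Ly6g and the single marker genes of other cell types were added after their values were seen. The 10 leading spots of an area held the most UMIs of the 9 genes, or of 1 gene where its own share is given. Genes most like the members were ranked by Pearson's r with the summed members on log2 UMIs per 10000 plus 1, over spots with at least 500 UMIs, averaged over the 4 areas. No spot was assigned a cell type.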

Additional observations from a re-analysis of the deposited data

How the results depend on the processing

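Of 507 values recomputed under the alternatives, 355 kept their direction and their side of the threshold or moved by less than their interval, 26 lost a call, 4 gained one, 92 moved further, and 30 that have a test turned sign. A further 7 of those that moved, with 1 Advanced area alone and no test, also turned sign, and none of these 37 was in a called member; the cause was not tested. In Advanced against Early, 1 of the 5 members stayed called with DESeq2 and 1 with rim spots only. In Advanced against WT, 0 of the 2 stayed called with DESeq2 and 0 with rim spots only, and 1 each without the 10 leading spots and with interior spots only. In rim against interior, 2 members were called without the 10 leading spots (Mmp9 higher and Ngp lower), 0 with a rim of 2 spots and 0 without the replicate block, and leaving out 1 area gave 0 (without Early) to 2 (without Advanced 1). Without the 10 leading spots the 9 genes together were at 4.85 UMIs per 10000 in WT, 2.79 in Early, 9.15 in Advanced 1 and 4.67 in Advanced 2. The leading 1% of spots held 26.7%, 46.4%, 33.6% and 35.1% of their UMIs.

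The log2 values that turned sign follow. In rim against interior, leaving out 1 area gave -0.54 to 0.070 for Camp, -0.67 to 0.23 for Ngp, -0.41 to 0.46 for Ltf, -0.14 to 0.38 for Lcn2, -0.018 to 0.42 for S100a9 and -0.38 to 0.45 for Retnlg. DESeq2 gave 0.054 for Ltf. Lcn2 was at -0.054 with library size alone, at -0.0043 over spots with at least 500 UMIs, and at -0.038 without the block. Without the 10 leading spots Lcn2, S100a8, S100a9 and Retnlg were at -0.18, -0.12, -0.16 and -0.14, and with a rim of 2 spots at -0.011, -0.013, -0.042 and -0.060. Retnlg was at -0.057 without the block. In Advanced against Early, rim spots only gave -0.057 for Lcn2 and -0.097 for Retnlg. In Advanced against WT, rim spots only gave -0.19 for Lcn2 and -0.25 for Retnlg, Retnlg was at -0.0089 without the leading spots, Mmp8 at 0.082, 0.16 and 0.15 with library size alone, without the leading spots and with interior spots only, and Mmp9 at -0.068 with interior spots only. With 1 Advanced area alone the values ranged from -0.18 to 0.54 for Lcn2 and -0.74 to 1.14 for Retnlg against Early, and against WT from -0.36 to 0.37 for Lcn2, -0.13 to 0.71 for S100a8, -0.32 to 0.57 for S100a9, -1.13 to 0.74 for Retnlg and -1.11 to 0.56 for Mmp8.

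Over all genes, Advanced against Early called 152, and 7 with DESeq2, 62 without the leading spots, 15 with rim spots only and 35 with interior spots only. Advanced against WT called 272, and 33, 127, 121 and 40 in the same order. Rim against interior called 898, and 422 with DESeq2, 542 over spots with at least 500 UMIs, 520 with a rim of 2 spots, 148 without the block, and 335 to 1148 with 1 area left out. With library size alone the median of all genes in Advanced against WT was 0.13, and the split of higher to lower calls was 165 to 129 in place of 96 to 176; against Early it was 89 to 45 in place of 65 to 87, and in the rim 297 to 696 in place of 485 to 413. No paired analysis was possible because only the Advanced group has more than 1 area; rim and interior were blocked by area. The nodes of an area share 1 section, so the spread between mice is not known, and Mmp8 and Retnlg are limited by their counts.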

Other observations

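The share of spots with a UMI of these genes depends on depth, so each spot was also thinned to 500 UMIs, which left out 477 spots in WT, 782 in Early, 1212 in Advanced 1 and 967 in Advanced 2. S100a8 or S100a9 was then found in 18.3% of 356 spots in WT, 7.64% of 707 in Early, 21.3% of 803 in Advanced 1 and 12.5% of 815 in Advanced 2, against 22.8%, 21.4%, 26.0% and 19.7% of all spots without thinning. Camp, Ngp or Ltf was found in 4.49%, 0.990%, 9.71% and 4.91% of the thinned spots, and in 8.76%, 4.97%, 14.9% and 9.65% without thinning. Early thus had the lowest share of spots for both groups of genes at equal depth. No cell type known to lack these genes can be singled out in spots, so a background share was not measured.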
